A study of Mus musculus with 16 samples.

Results

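Mucin-type O-glycans cover the secreted and membrane mucins of the gut, and their synthesis starts when a polypeptide GalNAc transferase of the Golgi attaches N-acetylgalactosamine to a serine or threonine. C1galt1, the core 1 synthase, then adds galactose, and it needs the chaperone C1galt1c1 (Cosmc) to fold into an active enzyme. The genes described here were 10: the transferases Galnt1, Galnt2, Galnt3, Galnt4, Galnt6, Galnt7, Galnt10 and Galnt12, together with C1galt1 and C1galt1c1. They were taken as listed genes, with every probe set that the platform annotation assigns to them. On the Mouse 430 2.0 GeneChip all 10 had probe sets, 26 of 45101. On the GlycoGeneChip, a custom array of genes of carbohydrate metabolism, 7 had 1 probe set each among 1813, and Galnt10, Galnt12 and C1galt1c1 had no mouse probe set annotated.

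The epithelium was laser-captured from the ceca of adult male NMRI mice on a polysaccharide-rich chow. Germ-free mice (GF) were compared with mice associated for 10 days with Bacteroides thetaiotaomicron (Bt), with Bifidobacterium longum (Bl), or with both (Bt/Bl). Each state was 1 pool of RNA from 4 mice. For the Mouse 430 2.0 the pool was amplified and hybridized in duplicate, so that the spread between both GeneChips of a state is technical and each test compares 1 pool with another. The sources used here do not say how the GlycoGeneChip duplicates were made. With 2 GeneChips against 2, an exact two-sided permutation test cannot give a p below 0.333. GeneChips are named by their number: on the Mouse 430 2.0 GF was 9128 and 9129, Bt 9130 and 9443, Bl 9134 and 9135, and Bt/Bl 9132 and 9133. Pairs of values are given in this order.

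Libraries of several states differed in ways that touch the members. The GF pool went against the male sex given in the methods: the signals of Xist, transcribed from the inactive X, were 17157 and 22762 in GF, 7541 and 11176 in Bt/Bl, and 3753 to 5086 in Bt and Bl, and the Y-linked Eif2s3y had 71.3 and 614 in GF, against 3201 to 5657 in the other pools. Fabp6, a bile acid-binding protein of ileal enterocytes, was also far higher in GF (68029 and 95108, against 1179 to 1798). The sum over 6 ileal enterocyte markers, Fabp6 among them, did not set GF apart. It was 721898 to 848028 in GF, 800934 to 1061403 in Bl, and 621420 to 711628 in Bt and Bt/Bl. Summed over 7 leukocyte markers, GF reached 117657 to 132199 and the other states 26534 to 66924. Bl 9134 had the highest median signal of its table (759, against 475 to 654), and the Bl duplicates correlated least (Pearson's r = 0.785, against 0.814 to 0.866). The 8 epithelial markers were bright on every GeneChip (summed signal 988641 to 1455454), and 9 markers of fibroblasts and smooth muscle summed to 33074 to 41248 in GF and Bt and to 17034 to 24125 in Bt/Bl and Bl. In bulk samples fewer cells of a type and less RNA per cell cannot be told apart.

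Signals below show the scale of 1 probe set across states and do not rank one gene against another. For 9 of the 10 genes the brightest probe set exceeded the median of all values (583.1) on all 8 Mouse 430 2.0 GeneChips. Galnt2 exceeded it on 4. In no comparison did any of the 10 genes pass the test, and the signals of single GeneChips are therefore given with the interval or standard error (SE) of each difference.

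**Figure D1:**
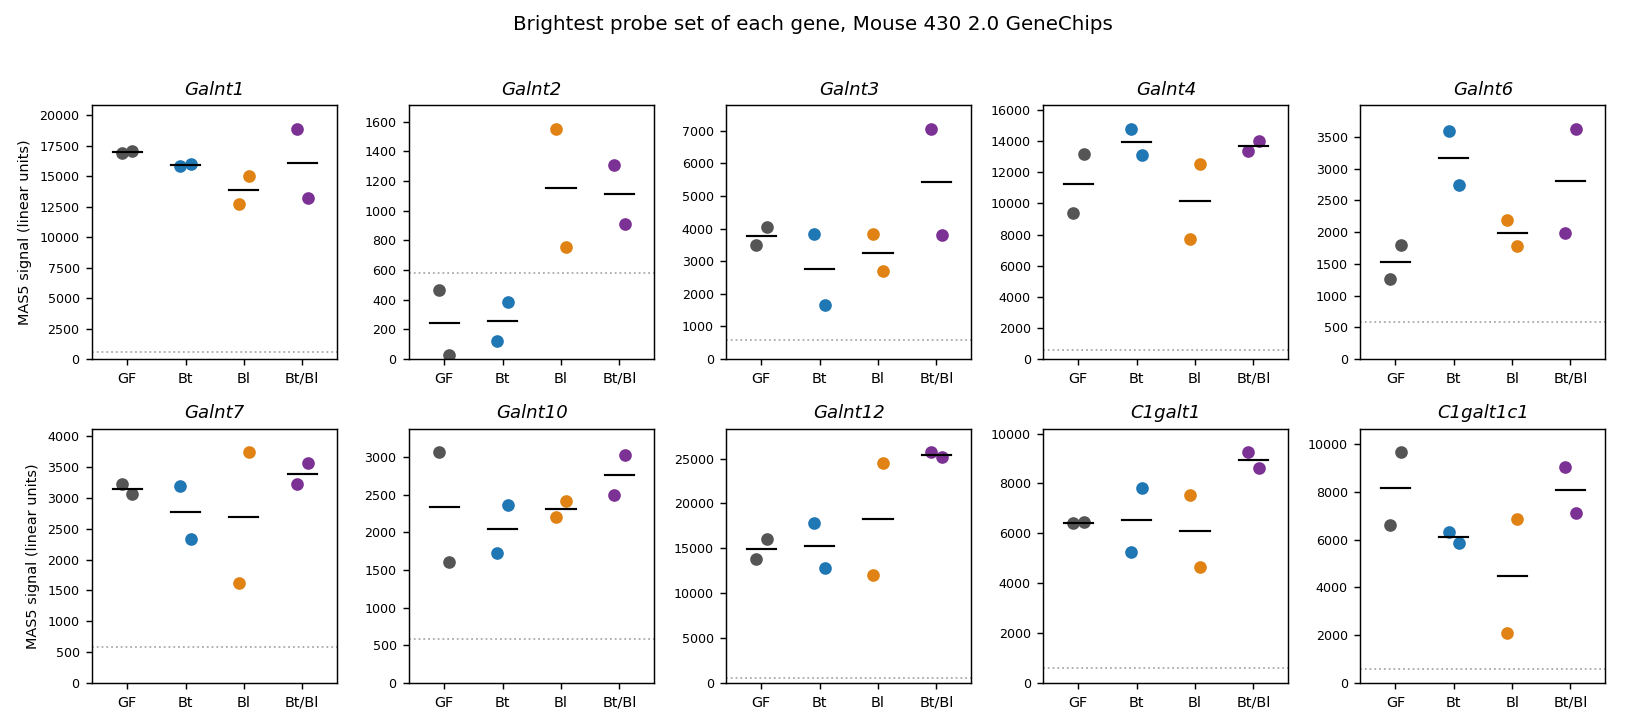
MAS5 signal (linear units, axis from 0, a different range for each gene) of the brightest probe set of each gene on the Mouse 430 2.0, by colonization state. Points are the 2 GeneChips of a state, bars their mean and the dotted line the median of all values of the table; both Bt/Bl points of Galnt12 and of C1galt1 lie above all others, while the Bl points of Galnt12, Galnt7 and C1galt1c1 lie far apart.

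Galnt1 and Galnt2 are broadly expressed transferases that can act on peptides without earlier sugars. The brighter Galnt1 probe set read 16926 and 17042 in GF, 15807 and 15988 in Bt, 18892 and 13211 in Bt/Bl, and 12693 and 14964 in Bl. Both GF signals were above both Bt and both Bl signals by a small margin, and the Bt/Bl pair spanned all GeneChips of the other states except Bl 9134. The log2 fold change against GF was -0.10 in Bt (95% interval -0.59 to 0.40), -0.10 in Bt/Bl (-0.60 to 0.39) and -0.30 in Bl (-0.80 to 0.20), with limma's adjusted p at 0.652 or above. Among the brightest probe sets Galnt1 was the one with the narrowest intervals, and changes of over 2-fold lie outside all 3 of them for this probe set. The intervals hold for the deposited scaling and for 1 pool per state, and do not exclude such a change of the gene. With scaling to a common median Bl against GF was -0.65. The dimmer probe set of Galnt1, 1423237_at, was far less precise, at 501 and 1344 in GF, 750 and 258 in Bt, 903 and 989 in Bt/Bl, and 130 and 349 in Bl. Its signals in Bl were under both GF and both Bt/Bl signals, at -1.87 against GF (95% interval -3.99 to 0.25, adjusted p = 0.498), and it had passed the filter through Bt/Bl alone. On the GlycoGeneChip its signals were 2778 and 1236 in GF, 1830 and 1344 in Bt, 1437 and 816 in Bt/Bl, and 1297 and 483 in Bl, with overlap between the GF pair and the pairs of the other states. There the change in Bl against GF was -1.23 (SE 1.21).

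Galnt2 was near the lower end of the scale. Its brightest probe set read 465 and 26 in GF, 123 and 386 in Bt, 1307 and 913 in Bt/Bl, and 1554 and 754 in Bl. The states with B. longum did not overlap those without it, at log2 fold changes against GF of 2.07 (SE 0.995) in Bt/Bl and 2.06 (SE 0.995) in Bl, and neither passed the test (limma adjusted p = 0.688 and 0.443). This probe set entered the test only because both Bl and both Bt/Bl signals exceeded the table median, so that a difference in this direction was built into its selection. The states with B. longum also had the lower sums of fibroblast and smooth muscle markers, and the part of this in the Galnt2 signals was not tested. The other Galnt2 probe sets were not tested and did not share the pattern: 1452182_at had 1290 in Bt 9443 and 1248 in Bl 9135 but 34 and 154 in Bt/Bl. On the GlycoGeneChip Galnt2 ranged from 179 to 4189, and its duplicates differed most in Bt (342 and 4189).

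Galnt3 and Galnt6 are closely related transferases, of which Galnt3 also glycosylates the hormone Fgf23. The brightest Galnt3 probe set, 1417588_at, gave 3505 and 4052 in GF, 3848 and 1667 in Bt, 7069 and 3809 in Bt/Bl, and 3843 and 2691 in Bl. Only Bt/Bl 9132 stood above the other GeneChips. The GlycoGeneChip probe set for Galnt3 read 3306 and 5584 in GF, 3832 and 3631 in Bt, 3896 and 5180 in Bt/Bl, and 4220 and 3006 in Bl. Both Bt/Bl signals were just above both Bt signals, and all other pairs of states overlapped. The log2 fold change of Bt/Bl against GF was 0.46 (SE 0.44) on the Mouse 430 2.0 and 0.06 (SE 0.48) on the GlycoGeneChip.

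A dim probe set of Galnt3, 1417589_at, behaved differently: 72 and 130 in GF, 72 and 46 in Bt, 486 and 1077 in Bt/Bl, and 588 and 869 in Bl. All signals without B. longum were under the floor of 144.7, and all signals with it were above. The log2 fold change against GF was 2.30 (SE 0.74, adjusted p = 0.235) in Bl and 2.32 (SE 0.74, adjusted p = 0.446) in Bt/Bl by limma, on a scale where the floor shortens the difference. It passed the filter through Bl alone. The third probe set, 1427749_at, went the other way, from 1176 and 1021 in GF to 675 and 685 in Bt/Bl and 929 and 459 in Bl. The 3 probe sets of Galnt3 therefore gave no common direction for the presence of B. longum.

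**Figure D2:**
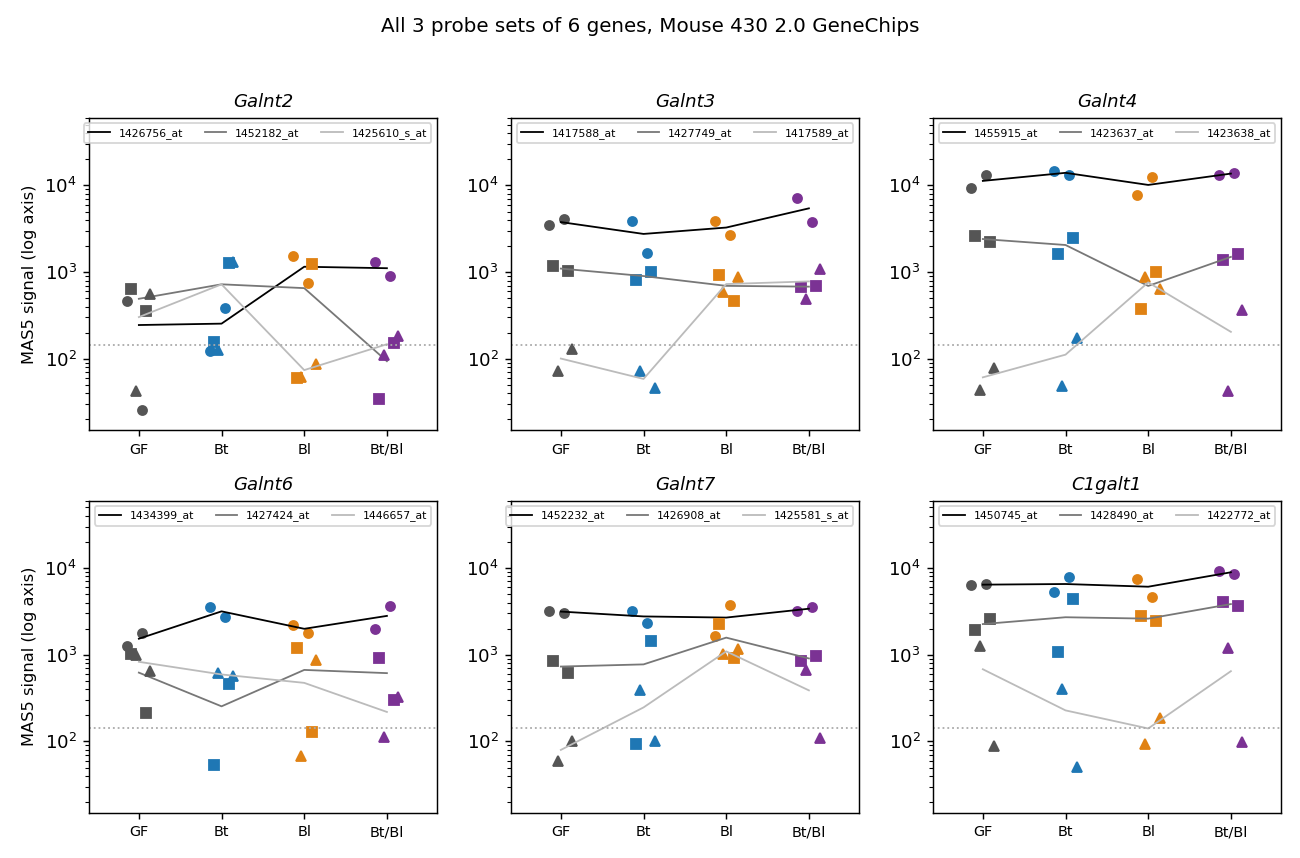
MAS5 signal (log axis) of all 3 probe sets of Galnt2, Galnt3, Galnt4, Galnt6, Galnt7 and C1galt1 on the Mouse 430 2.0, by colonization state. Circles, squares and triangles are single GeneChips of the probe sets drawn with the dark, middle and pale line, lines join state means and the dotted line is the floor of 144.7; dim probe sets of Galnt3, Galnt4 and Galnt7 are high in Bl, where the brightest probe set of the same gene is not.

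Galnt6 gave 1261 and 1799 in GF, 3594 and 2734 in Bt, 1978 and 3630 in Bt/Bl, and 2196 and 1785 in Bl. Both Bt and both Bt/Bl signals were above both GF signals, and Bl overlapped GF. The increase in Bt was 2.08-fold (log2 fold change 1.06, SE 0.47), with an unadjusted p of 0.0398 and an adjusted p of 0.488 by limma. On the GlycoGeneChip the same comparison gave 0.01 (SE 0.98), from 2520 and 1375 in GF and 2036 and 1726 in Bt. The other Galnt6 probe set that was tested, 1446657_at, went down, from 1000 and 657 in GF to 609 and 576 in Bt, 114 and 324 in Bt/Bl, and 68 and 879 in Bl. Its log2 fold change was -0.45 in Bt and -1.91 in Bt/Bl (SE 0.99, adjusted p = 0.933 and 0.737), and it had passed the filter through GF alone. RefSeq lists an antisense gene, Galnt6os, at this locus.

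Galnt4, Galnt7 and Galnt10 act mainly on peptides that already carry GalNAc. The brightest Galnt4 probe set gave 9368 and 13189 in GF, 14814 and 13130 in Bt, 13362 and 14015 in Bt/Bl, and 7736 and 12527 in Bl. Both Bt/Bl signals were just above both GF signals, and both Bl signals were under both Bt and both Bt/Bl signals. Bl against Bt was -0.50 on the log2 scale (SE 0.27, adjusted p = 0.492), and -0.16 without Bl 9134. The other 2 probe sets of Galnt4 opposed each other in Bl. One, 1423637_at, read 2617 and 2200 in GF and 378 and 1008 in Bl (log2 fold change -1.96, SE 0.64, adjusted p = 0.238). The other, 1423638_at, read 44 and 79 in GF and 876 and 647 in Bl (2.38, SE 0.64, adjusted p = 0.169), and it passed the filter through Bl alone. RefSeq places Galnt4 within the span of Poc1b, a centriole protein gene. The GlycoGeneChip probe set of Galnt4 was between 112 and 310 on all 8 GeneChips and was not tested.

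The brightest Galnt7 probe set was 3221 and 3068 in GF, 3196 and 2332 in Bt, 3218 and 3567 in Bt/Bl, and 1627 and 3737 in Bl. The Bl pair alone covered the whole range of the other states. Bl against GF was -0.35 on the log2 scale (SE 0.43), and it became 0.25 without Bl 9134 and -0.95 without Bl 9135. On the GlycoGeneChip the signals ran from 1136 to 2935, and Bl against GF was 0.60 (SE 0.81). A dim probe set of Galnt7, 1425581_s_at, was 59 and 100 in GF but 1027 and 1159 in Bl, with 392 and 102 in Bt and 666 and 110 in Bt/Bl. Its difference of 2.92 (SE 0.86, adjusted p = 0.206) in Bl again came with selection through Bl alone. The third Galnt7 probe set, 1426908_at, read 850 and 610 in GF, 93 and 1454 in Bt, 850 and 962 in Bt/Bl, and 2243 and 906 in Bl. Both its Bl signals were above both GF signals, Bl 9135 by little, and it passed the filter through GF and Bt/Bl as well as Bl. Galnt10 gave 3060 and 1610 in GF, 1723 and 2360 in Bt, 2492 and 3028 in Bt/Bl, and 2205 and 2416 in Bl, and the GF pair spanned every other GeneChip. Its moderated F over the 3 colonized states, 0.331, was the lowest of the 10 genes.

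Galnt12 is a transferase prominent in the colon, in which inherited variants have been linked to colorectal cancer. Its single probe set read 13827 and 16010 in GF, 17762 and 12768 in Bt, 25688 and 25186 in Bt/Bl, and 12006 and 24507 in Bl. Both Bt/Bl signals were the highest of the 8, with Bl 9135 just under them, and Bl 9134 was the lowest. Bt/Bl exceeded GF 1.71-fold (log2 fold change 0.77, SE 0.29, 95% interval 0.15 to 1.40) and Bt by 0.76 (SE 0.29). The unadjusted p was 0.0188 and 0.0211, and the adjusted p 0.536 and 0.369. Leaving out single GeneChips kept Bt/Bl against GF between 0.67 and 0.88. The comparison with Bl rested on 1 GeneChip, since 0.57 in the full fit became 0.05 without Bl 9134 and 1.08 without Bl 9135. Likewise Bl against GF was 0.205 in the full fit, 0.72 without Bl 9134 and -0.31 without Bl 9135.

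C1galt1 makes core 1, the common base of extended mucin-type glycans. Its brightest probe set gave 6398 and 6458 in GF, 5262 and 7816 in Bt, 9246 and 8610 in Bt/Bl, and 7527 and 4643 in Bl. As with Galnt12, both Bt/Bl signals were the highest of the 8. The log2 fold change of Bt/Bl was 0.47 against GF (SE 0.30, 95% interval -0.17 to 1.12), 0.48 against Bt and 0.59 against Bl, with adjusted p of 0.825, 0.632 and 0.465. A further probe set, 1428490_at, had 1924 and 2588 in GF, 1065 and 4346 in Bt, 4055 and 3623 in Bt/Bl, and 2759 and 2454 in Bl, with Bt 9443 above both Bt/Bl signals. The GlycoGeneChip probe set was under its table median on 4 GeneChips, was not tested, and gave 1722 and 325 in Bt/Bl.

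C1galt1c1, the chaperone, gave 6625 and 9649 in GF, 6300 and 5870 in Bt, 9020 and 7098 in Bt/Bl, and 2071 and 6853 in Bl. Bl 9134 alone stood apart, at less than any other GeneChip. The log2 fold change of Bl was -1.09 against GF (SE 0.42, adjusted p = 0.328) and Bt/Bl exceeded Bl by 1.09 (SE 0.42, adjusted p = 0.328). Without Bl 9134 these were -0.22 (adjusted p = 0.835) and 0.22, whereas with Bl 9134 as the only Bl GeneChip they were -1.95 (adjusted p = 0.0245) and 1.95 (adjusted p = 0.0248), past the threshold. C1galt1c1 lies on the X chromosome, and the order of its mean linear signals, GF, Bt/Bl, Bt and Bl, was also that of Xist. On the log2 scale Bt/Bl and GF differed by 0.00, and without Bl 9134 the Bl signal of C1galt1c1 was above Bt by 0.17. The part of the pools' sex makeup in these values was not tested.

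Of the 26 member probe sets on the Mouse 430 2.0, 19 passed the filter, and of the 7 on the GlycoGeneChip 4 did (Galnt1, Galnt3, Galnt6 and Galnt7). The 7 left out on the Mouse 430 2.0 were further probe sets of Galnt2, Galnt6, Galnt10, C1galt1 and C1galt1c1, with signals of 34 to 1318, so that each gene was tested through at least 1 probe set there. None was called by limma at an adjusted p under 0.05 in any of the 6 comparisons on either table. Calls were rare among all probe sets tested: for Bt, Bl and Bt/Bl against GF they were 0.169%, 0.137% and 0.197% of 24865 on the Mouse 430 2.0, and 0.0483%, 0.0563% and 0.0442% for Bt/Bl against Bt, Bt/Bl against Bl, and Bl against Bt. On the GlycoGeneChip the shares in the same order were 1.33%, 1.55%, 1.55%, 1.11%, 1.55% and 1.55% of 451. At shares this low a count of 0 among 19 or 4 probe sets does not set the members apart.

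At an unadjusted p under 0.05 the members on the Mouse 430 2.0 numbered 1 of 19 in Bt against GF (9.49% of all tested), 5 in Bl against GF (11.7%) and 2 in Bt/Bl against GF (7.39%). They numbered 4 in Bt/Bl against Bt (10.5%), 2 in Bt/Bl against Bl (11.8%) and 5 in Bl against Bt (11.9%). Of the 5 in Bl against GF, 3 were the dim probe sets of Galnt3, Galnt4 and Galnt7 that were selected through Bl. Of the 5 in Bl against Bt, 4 were these and the Galnt2 probe set, selected through Bl and Bt/Bl. The 4 in Bt/Bl against Bt included this Galnt2 probe set and the dim Galnt3 probe set. That Galnt3 probe set was also among the 2 in Bt/Bl against GF. The dim Galnt4 probe set selected through Bl was among the 2 in Bt/Bl against Bl. None of the 4 GlycoGeneChip probe sets was under 0.05, against 8.65%, 11.1%, 9.31%, 10.6%, 14.0% and 13.7% of all tested in the same order.

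A rule on size, a lower 90% bound of the fold above 2 and a signal difference above 10, was applied as well, since the methods of the study use such a bound. On the Mouse 430 2.0 it took 0, 3, 1, 1, 0 and 2 member probe sets in the same order, against 2.44%, 3%, 1.27%, 2.46%, 3.11% and 3.88% of all tested. All those taken were dim probe sets, of Galnt3, Galnt4 or Galnt7, that had passed the filter through Bl alone. With the bound at 1.2 the counts were 0, 6, 2, 3, 4 and 5, against 9.38%, 11%, 6.94%, 9.87%, 11.1% and 11.9%. Those in Bl against GF and Bl against Bt included these dim probe sets and the Galnt2 probe set selected through Bl and Bt/Bl. The 2 in Bt/Bl against GF were that Galnt2 probe set and Galnt3 1417589_at, and both were also among the 3 in Bt/Bl against Bt. The 4 in Bt/Bl against Bl included the dim Galnt4 and Galnt7 probe sets and Galnt1 1423237_at, selected through Bt/Bl alone. On the GlycoGeneChip the bound at 1.2 took no member, against 8.20%, 9.53%, 10.6%, 10.6%, 12.6% and 11.8% of all tested.

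As a group, the brightest probe sets were slightly higher in Bt/Bl on the Mouse 430 2.0. Of the 10 genes, 9 had a positive log2 fold change of Bt/Bl against GF, with a median of 0.39 against 0.01 over all probe sets tested, although none passed the test. Over all probe sets tested 50.3% were positive. C1galt1c1 counts among the 9 at only 0.001. Galnt2 is among the 9, by the probe set whose selection built in that direction; without it 8 of 9 were positive, with a median of 0.31, a setting chosen after seeing the data. Against Bt 7 of 10 were positive (49.4% over all, median 0.42 against -0.01), and against Bl 10 of 10 (48.1% over all, median 0.47 against -0.04). With single GeneChips left out, 8 to 10 of the 10 were positive against GF. Against Bl the median fell to 0.20 without Bl 9134, where the median over all was -0.19. Under the other scalings 8 or 9 were positive against GF, with medians of 0.34 to 0.38 against -0.04 to -0.00 over all. Against Bl, where 10 of 10 stayed positive with scaling to a common median, 62.4% over all were positive (median 0.76 against 0.27). With the filter at the 75th percentile, 9 of 9 were positive against Bl beside 56.5% over all (median 0.475 against 0.09). Bt and Bl alone showed no such shift against GF, with 3 and 4 of 10 positive (51% and 52.4% over all) and medians of -0.12 and -0.15. These comparisons share the GF or Bt/Bl GeneChips. Other measures differed between Bt/Bl and GF as well: the 3' probe set of Gapdh divided by its 5' probe set, a sign of RNA quality, gave 15.6 and 12.6 against 5.7 and 7.3. This ratio was also above GF in Bt (11.8 and 8.9) and in Bl (10.4 and 17.6). The same ratio for actin went the other way, at 32.9 and 26.1 in Bt/Bl against 36.9 and 38.8 in GF. The summed signal of 4 markers of proliferating cells was 30124 to 43478 against 20083 to 22451. Their part in the shift was not tested. The 4 genes tested on the GlycoGeneChip did not repeat the shift: 2 were positive in Bt/Bl against GF, with a median of -0.31.

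**Figure D3:**
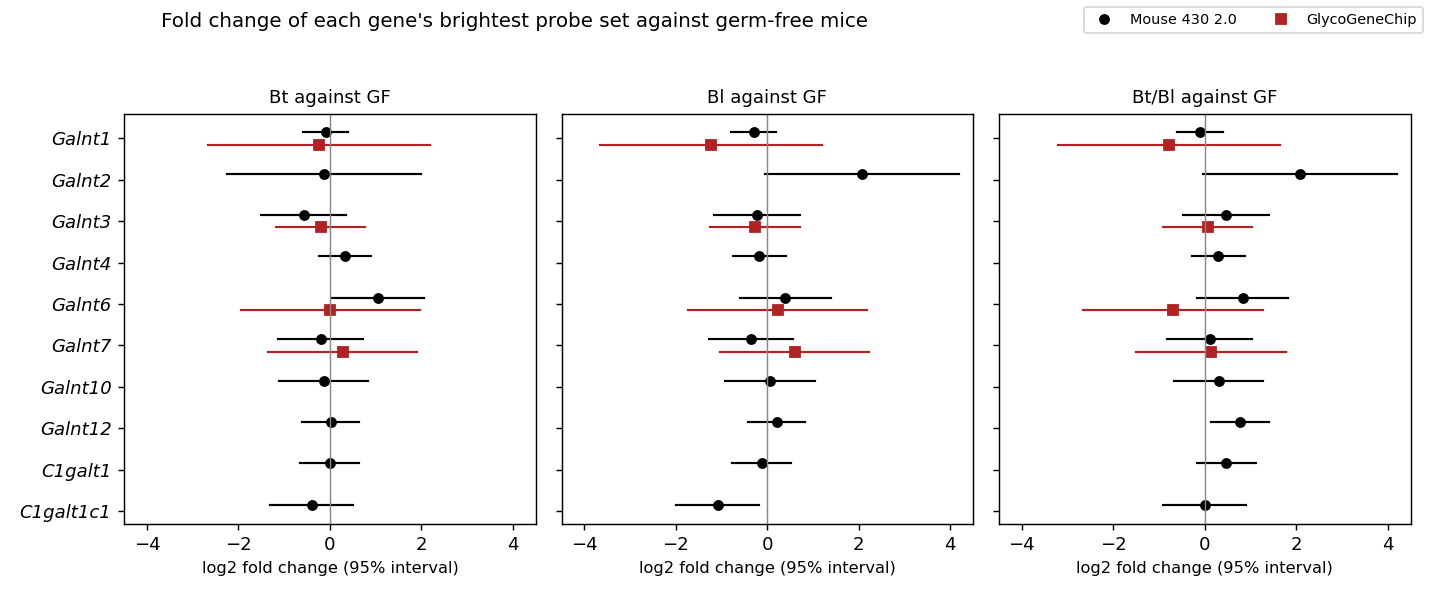
Log2 fold change against germ-free mice of the brightest probe set of each gene, with its 95% interval from limma, for each colonized state. Circles are the Mouse 430 2.0 and squares the GlycoGeneChip, for probe sets that were tested; the only intervals that leave out 0 are Galnt6 in Bt, C1galt1c1 in Bl and Galnt12 in Bt/Bl, all before adjustment.

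Duplicates set the precision of all these values. Over the 40 state pairs of brightest probe sets on the Mouse 430 2.0 the higher duplicate was a median of 1.38 times the lower, and 7 pairs differed by more than 2-fold. Over the 64 pairs of the other member probe sets the median was 2.47, and 35 pairs differed by more than 2-fold.

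**Figure D4:**
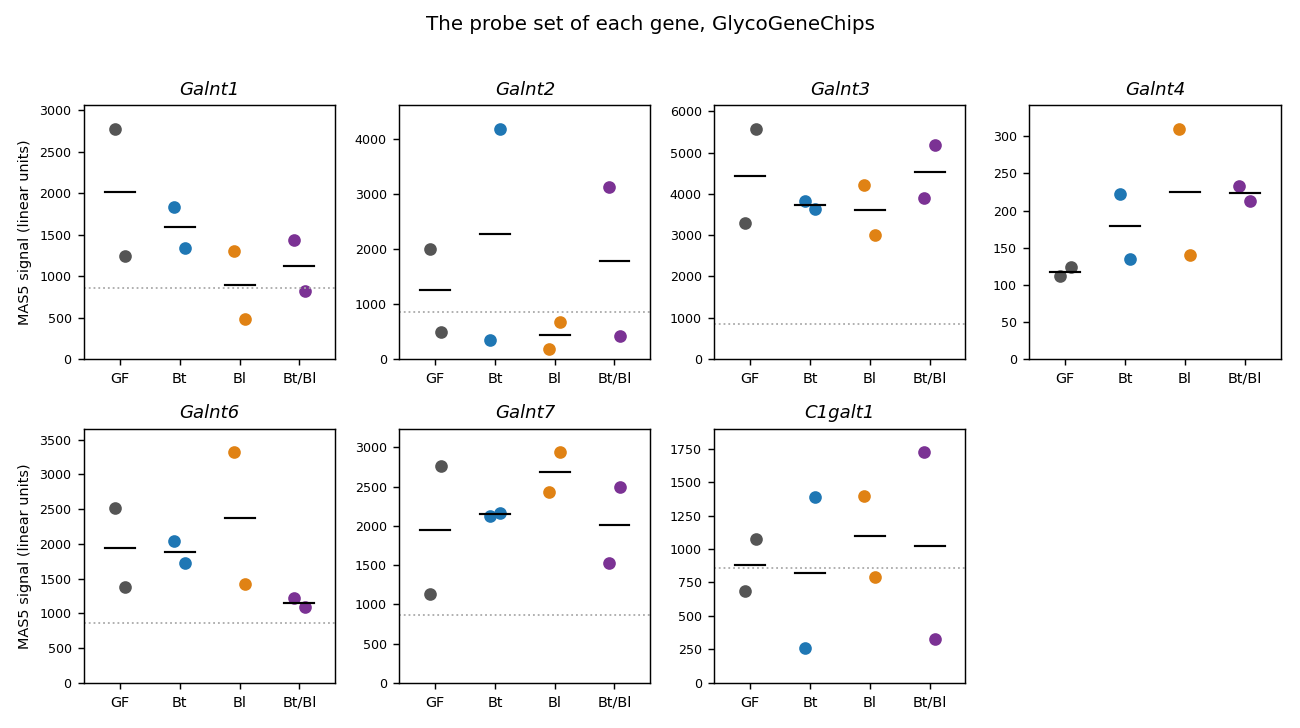
MAS5 signal (linear units, axis from 0, a different range for each gene) of the 7 genes with a mouse probe set on the GlycoGeneChip, by colonization state. Points are the 2 GeneChips of a state, bars their mean and the dotted line the median of all values of the table; the duplicates of Galnt2 in Bt and of C1galt1 in Bt/Bl differ by a larger ratio than those of Galnt3, and all Galnt4 points are under the median, which lies beyond its axis.

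The genes whose log2 signals followed a member most closely were sought for the 2 members with the highest moderated F, Galnt2 (3.07) and Galnt12 (3.03), as no member had been called. Over the 8 Mouse 430 2.0 GeneChips and 12686 other genes, Galnt2 was closest to Krt73 (Pearson's r = 0.973), Calb1 (0.967) and Trpm3 (0.952). For Galnt12 they were Arap2 (0.974), Slc6a14 (0.959) and Rab11a (0.954), and 48 genes had an r above 0.9, against 20 for Galnt2. The Galnt2 pattern is that of the probe set selected through Bl and Bt/Bl. The points share GeneChips and pools, and the coefficients are given as a description.

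The genes around the initiation step came from lists drawn up by role, and of these only Muc2, Muc4 and St6galnac4 were called in any comparison with GF. Of 11 other polypeptide GalNAc transferases, 10 were on the Mouse 430 2.0 and 4 were tested, and none was called or had an unadjusted p under 0.05 against GF. The brightest of them were Galnt11 (139 to 2053 over the 8 GeneChips) and Galnt16 (205 to 1840). Galnt16 was highest in Bl, at 1720 and 1840 against 1435 or less elsewhere, and the Galnt11 duplicates in Bl were 2053 and 139. Of 17 enzymes that build and sialylate the chains, 13 were tested on the Mouse 430 2.0, and none was called. At an unadjusted p under 0.05 there were 3 in Bt, 2 in Bt/Bl and 4 in Bl against GF. Over all probe sets tested the shares were 9.49%, 7.39% and 11.7% in this order. Gcnt3, which branches the core 1 and core 3 structures, stayed between 29838 and 40575 on all 8 GeneChips, with a log2 fold change of -0.05 (SE 0.22) in Bt/Bl.

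St6galnac4 and St6galnac6 add sialic acid to inner residues of glycans. On the GlycoGeneChip St6galnac4 read 32612 and 35411 in GF, 29479 and 36212 in Bt, 16180 and 18214 in Bt/Bl, and 20287 and 24433 in Bl. It fell by 0.99 on the log2 scale in Bt/Bl against GF (SE 0.24, limma adjusted p = 0.0149), and by 0.93 against Bt (adjusted p = 0.0345). With single GeneChips left out both calls were kept only without Bl 9181 or Bl 9182, with adjusted p of 0.0717 to 0.308 and of 0.0936 to 0.361 without any other. On the Mouse 430 2.0 its brightest probe set gave 1597 and 1724 in GF and 1549 and 1519 in Bt/Bl, and the change was -0.11 (SE 0.50). St6galnac6 was 14208 to 15646 in GF and 18873 to 22238 in the colonized states on the Mouse 430 2.0, without overlap; in Bt/Bl the log2 fold change was 0.50 (SE 0.21, adjusted p = 0.594), and 0.87 (SE 0.31, adjusted p = 0.142) on the GlycoGeneChip.

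Among 11 mucin genes, the main acceptors of these sugars, 8 were on the Mouse 430 2.0 and 5 were tested. Muc2, the gel-forming mucin of goblet cells, rose 2.92-fold in Bt, from 28272 and 30154 in GF to 89921 and 81136 (log2 fold change 1.55, SE 0.24, limma adjusted p = 0.00787). In Bl it was 59458 and 37734 and in Bt/Bl 33935 and 38645, and neither passed. The call in Bt was lost without GF 9128, GF 9129, Bt 9130, Bt 9443, Bt/Bl 9132 or Bt/Bl 9133, at 1.47 to 1.62 and an adjusted p of 0.0870 to 0.332. The summed signal of 9 goblet cell markers, Muc2 among them, was 895383 to 1045507 in GF and 1257285 to 1284938 in Bt. It was 1190687 to 1465361 in Bl, where Muc2 was not called, and 957515 to 1031893 in Bt/Bl. The part of this sum in the Muc2 result was not tested. Muc4, a membrane mucin, rose 4.11-fold in Bt/Bl, from 1913 and 1463 to 5938 and 7952 (log2 fold change 2.04, SE 0.38, adjusted p = 0.0395), and each of the 8 fits that left out a single GeneChip lost the call (adjusted p 0.151 to 0.470). Muc4 was also above both GF signals in Bt (2277 and 3541) and in Bl (3870 and 3102), and neither passed. Muc3 and Muc13, the brightest of the list, were between 119262 and 188624 and between 126706 and 181260, and none of their changes passed. On the GlycoGeneChip 3 mucin genes were tested, and none was called.

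The supply of UDP-GalNAc and UDP-galactose was measured by 10 of 12 listed genes, all tested on the Mouse 430 2.0, and none was called in any comparison. Gfpt1, the first enzyme of hexosamine synthesis, gave 66330 and 87285 in GF, 74828 and 100355 in Bt, 141191 and 121236 in Bt/Bl, and 50588 and 118479 in Bl. Both Bt/Bl signals were the highest, and Bl 9134 the lowest, which is the arrangement seen for Galnt12. The log2 fold change of Bt/Bl against GF was 0.78 (SE 0.33, adjusted p = 0.595). On the GlycoGeneChip Gfpt1 was likewise highest in Bt/Bl, at 5899 and 4197 against 1637 to 3428 elsewhere (1.28, SE 0.60, adjusted p = 0.439). Ugp2, which makes UDP-glucose, changed by -0.15 (SE 0.22). Oga, which removes O-linked GlcNAc, was also highest in Bt/Bl, at 24206 and 24299 against 9318 to 18930 elsewhere, and lowest in Bl 9134 (Bt/Bl against GF 0.37, SE 0.29, adjusted p = 0.862). Glb1, the lysosomal beta-galactosidase, was 1856 and 1666 in GF and 1997 to 3495 in the colonized states on the Mouse 430 2.0, without overlap, and its change in Bt was 0.77 (SE 0.43, adjusted p = 0.617). On the GlycoGeneChip Glb1 read 1875 and 180 in GF, which overlapped Bt/Bl (1524 and 2068) and Bl (1460 and 1360) but not Bt (3069 and 3881).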

How the data were processed

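The deposited values were signal intensities per probe set, which the authors obtained with MAS5 (version not given in the sources used here), brought to the same trimmed mean of about 1500, without detection calls. Genes were named from the platform annotation (Mouse 430 2.0: 34958 probe sets with 1 gene, 932 with several, 9211 with none). The members and gene lists were chosen with earlier results of these data known. Values below the table's 25th percentile (144.7; GlycoGeneChip 268.1) were set to it before log2, which understates the fold changes of dim probe sets. A probe set was tested if some state had both GeneChips above the median of all values (583.1; GlycoGeneChip 860.3). Both tables were fitted on their own with limma 3.58.1 in R 4.3.3 (lmFit, eBayes with trend) over 8 GeneChips, leaving 4 residual degrees of freedom, and p-values were adjusted by Benjamini-Hochberg over the 24865 or 451 probe sets of a comparison. A gene stands for its brightest probe set. Named were all members, other pathway genes called, and the 2 brightest of each list. The fit was tested on simulated data, in which more than the nominal share of calls was false. The number of GeneChips limits the precision. Alternatives were other scalings, floors, filters, spread models, call rules and probe sets, and each GeneChip left out. Of the GlycoGeneChip probe sets, 15 with a missing value were not used.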

Additional observations from a re-analysis of the deposited data

How the results depend on the processing

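No member was called on either table under any scaling, floor, filter or trend setting. Calls appeared on the Mouse 430 2.0 in other settings. A fit of only the 4 GeneChips compared called 3 of 18 member probe sets in Bl against GF and 2 in Bl against Bt, where it called 747 and 964 of all. The share over all probe sets is not given for this fit, so these counts do not set the members apart. The member with the lowest adjusted p in Bl against GF was Galnt4 1423638_at, which passed the filter through Bl alone. The lower 90% bound of the fold over 1.2 took 6 in Bl against GF, 2 in Bt/Bl against GF, 3 in Bt/Bl against Bt, 4 in Bt/Bl against Bl and 5 in Bl against Bt. With the bound over 2 these were 3, 1, 1, 0 and 2. Both series of counts include the probe sets selected through Bl or through Bl and Bt/Bl. With single GeneChips left out, only C1galt1c1 without Bl 9135 passed, where Bl was 1 GeneChip. Its log2 fold change was then -1.95 in Bl against GF and 1.95 in Bt/Bl against Bl. The cause was not tested. Over 84 member fold changes and 1408 alternative values, 1339 moved by less than 1 SE, and 76 had the opposite sign, none of them called. Another probe set of the gene moved 47 of 54 values by more, and 26 of the 54 had the opposite sign. Scaling to a common median moved the median of all probe sets in Bl against GF from 0.05 to -0.32 on the log2 scale. With that scaling the medians of the 10 genes against GF were -0.26 in Bt (-0.20 over all), 0.34 in Bt/Bl (-0.04) and -0.49 in Bl (-0.32). Muc2 in Bt was called in 6 of 16 alternatives, Muc4 in Bt/Bl in 2, and St6galnac4 in Bt/Bl in 4 against GF and 5 against Bt. No paired analysis was possible because the GeneChips of different states share no replicate number.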

Other observations

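The GlycoGeneChip also carried probe sets for human genes, which entered no comparison. Of these, 10 were annotated to the human counterparts of the genes described here. Their median signals over the 8 GeneChips lay between 125 for GALNT12 and 1159 for GALNT7, beside a median of 707 over 839 human and 1168 over 702 mouse probe sets.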
